A study of Mus musculus with 68 samples.

Results

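The primitive streak genes described here are 7 genes chosen by name, T, Mixl1, Mesp1, Wnt3, Evx1, Gsc and Snai1, out of 24941 gene names in the deposited tables. They were read mainly in the epiblast and extraembryonic ectoderm of E6.5 mouse embryos, where all 7 are listed, and were followed back to the oocyte. The series deleted Ezhip, an X-linked gene whose product inhibits the histone methyltransferase complex PRC2, and asked how H3K27me3 passes between generations. Libraries were made from polyadenylated RNA with Smart-seq2, which copies whole transcripts from very few cells. Levels are given as FPKM, a read count scaled to transcript length and library size. At E6.5 each tissue had 2 libraries of wild type (WT), 2 labelled Ezhip mHet and 2 labelled Ezhip mKO. The earlier tables held oocytes labelled FGO (2 WT, 2 Het and 3 KO libraries), 1-cell embryos labelled PN5 and late 2-cell embryos (2 of each genotype), and 8-cell embryos (2 WT, 1 mHet and 3 mKO). They also held 2 tables of E3.5 embryos (2 and 5 libraries of each genotype) and E4.25 embryos (4 WT, 4 mKO and 2 mHet libraries). The mHet pair of E4.25 held identical values and was counted as 1. The labels do not spell out the m, name no strain and do not say how many embryos a library holds. No source says that libraries of a group came from separate animals, so every p-value measures only the spread between these libraries.

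The primitive streak is the strip of posterior epiblast where cells leave the epithelium and become mesoderm and definitive endoderm. BMP4 from the extraembryonic ectoderm and NODAL from the epiblast induce Wnt3, and WNT signalling through β-catenin and TCF/LEF factors then switches on T and other streak genes. The anterior visceral endoderm secretes inhibitors such as LEFTY1, CER1 and DKK1, which keep the streak to the posterior side. Wnt3 encodes the ligand among the 7 genes. T (Brachyury) is a T-box factor of nascent mesoderm, Mixl1 a homeobox factor of mesendoderm, and Mesp1 a bHLH factor of the earliest cardiac and cranial mesoderm. Evx1 is a homeobox gene of the posterior streak, Gsc a homeobox gene of the anterior streak and organizer, and Snai1 represses E-cadherin as cells delaminate.

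Because T and its companions are WNT targets, the upstream sequence of the 7 genes was searched for the TCF/LEF core, CTTTGA or CTTTGT on either strand. RefSeq sequences of the GRCm38.p6 build covered 6 of the 7 genes, without Mixl1, and the 250 bases before each annotated start were read. Of the 6, 3 held a match (T, Mesp1 and Snai1), beside 27.6% of 32851 windows of that length. The match is in capitals in the sequence upstream of T, chr17:8434173-8434422 on the plus strand, shown because T is the defining gene of the streak.
T: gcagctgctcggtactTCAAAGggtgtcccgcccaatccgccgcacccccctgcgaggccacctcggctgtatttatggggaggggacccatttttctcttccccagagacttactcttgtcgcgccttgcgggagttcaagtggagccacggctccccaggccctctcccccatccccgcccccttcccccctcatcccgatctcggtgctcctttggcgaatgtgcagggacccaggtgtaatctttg
The match in Snai1 lies 64 bases before the start and those in Mesp1 lie 67 and 26 bases before it, shown here on the strand of each gene with 8 bases on either side.
Snai1, chr2:167538118-167538139: cagccttgACAAAGgggcgtga
Mesp1, chr7:79793649-79793670: gctatggtTCAAAGggttcagg
Mesp1, chr7:79793608-79793629: cgagccggCTTTGAtatgctga
A T-box core site, TCACACCT on either strand, was in none of the 6 windows and in 1.12% of all windows. These matches describe letters in a window and say nothing of whether a factor binds there.

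Several facts of the E6.5 libraries bear on the streak genes. Ezhip, listed under its older symbol AU022751, was at or below 0.7723 FPKM in all 12 libraries, WT included, so its level at E6.5 cannot check the genotype labels, whereas it fell in the KO or mKO libraries of the oocytes, 1-cell and late 2-cell embryos. By limma, all 10 extraembryonic ectoderm markers were lower in epiblast libraries, beside 14.2% of all genes. Of the 10 epiblast markers 6 were higher, beside 19.4% of all genes. Some of the extraembryonic ectoderm markers reached 1 FPKM in no epiblast library. They entered the test through the tissue where they were high, so their differences are descriptions. Extraembryonic ectoderm WT 1 also held Pou5f1, an epiblast gene, at 18.3 FPKM, where the other libraries of that tissue held 0.135 to 2.36. Epiblast mKO 3 held the extraembryonic ectoderm gene Elf5 at 18.4 FPKM and mHet 4 held it at 5.02, where the other epiblast libraries held 0 to 0.114. The summed visceral endoderm markers were 52.9 FPKM in extraembryonic ectoderm mKO 2 and 0.913 to 7.21 in the other libraries, and the summed decidual and blood markers stayed at or below 2.81 and 1.15 FPKM. Y-linked transcripts summed to 90.7 FPKM in epiblast WT 3, 82.2 in epiblast mKO 4, 34.6 in extraembryonic ectoderm WT 1 and 44.1 in mKO 2, and to at most 0.19 in the other 8. In bulk RNA, fewer cells of a type and less RNA per cell cannot be told apart.

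In the E6.5 epiblast the streak genes were uneven between libraries of the same genotype. WT library 3 was high for most of them, WT library 4 was low, and the mKO libraries sat near WT library 4. Wnt3, the ligand, read 3.07 and 0.632 FPKM in WT libraries 3 and 4, 1.38 and 3.60 in mHet 3 and 4, and 0.770 and 1.01 in mKO 3 and 4. Its mKO values fell between the 2 WT values. T read 6.21 and 0.149 FPKM in WT, 0.374 and 1.50 in mHet, with 0.422 and 0 in mKO. The mKO libraries were below WT 3 but overlapped WT 4. Mixl1 read 80.5 and 1.41 FPKM in WT, 1.08 and 5.75 in mHet, with 0.593 and 0.800 in mKO. Both mKO values lay below both WT values, although WT 4 was closer to the mKO libraries than to WT 3.

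Mesp1 was listed at 4.33 FPKM in WT 3 and 1.06 in mHet 4, and at 0 in the other 4 epiblast libraries, WT 4 and both mKO libraries among them. Gsc read 3.20 and 0.337 FPKM in WT, 1.67 and 1.89 in mHet, with 0.138 and 0.651 in mKO. The mHet libraries lay between the 2 WT ones and above both mKO libraries, where 15.1% of all genes were separated in that direction. Evx1 stayed under 1 FPKM in every epiblast library, with 0.619 and 0.0691 in WT, 0.289 and 0.883 in mHet, with 0.112 and 0.134 in mKO. It did not pass the filter of 1 FPKM in at least 2 libraries and was not tested at E6.5. WT 3 and mHet 4 were the 2 highest epiblast libraries for 6 of the 7 genes.

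Snai1 followed another order. It read 1.42 and 0.660 FPKM in WT, 9.76 and 5.33 in mHet, with 6.80 and 1.45 in mKO. The WT libraries were the 2 lowest of the 6, and mKO 4 exceeded WT 3 by a small margin.

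**Figure D1:**
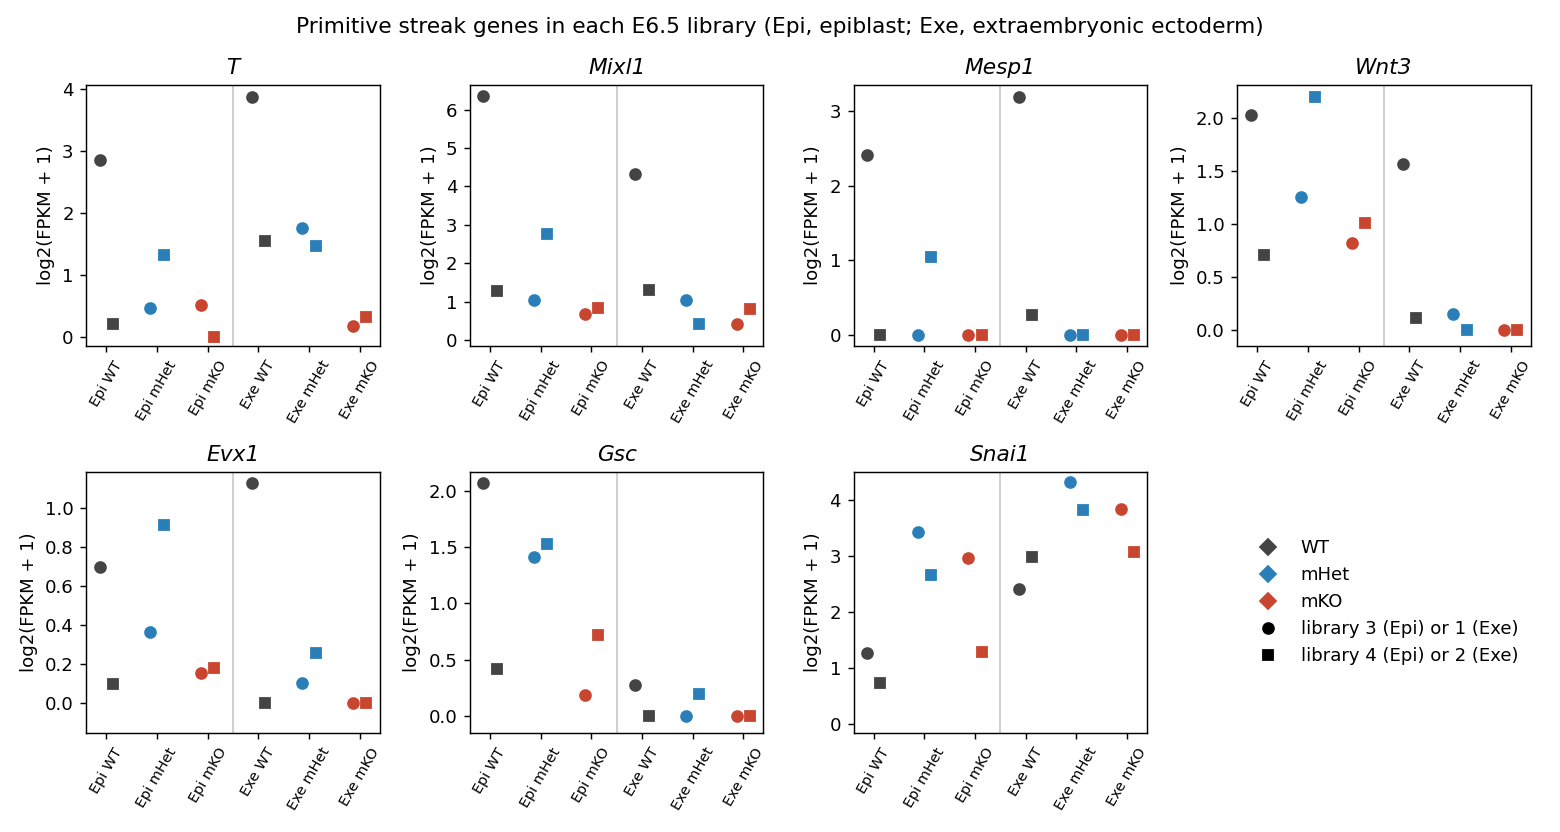
Each panel plots 1 gene as log2(FPKM + 1) (vertical axis) in the 12 E6.5 libraries, grouped by tissue and genotype on the horizontal axis, with 1 point per library, circles for the lower-numbered and squares for the higher-numbered library of a pair. T, Mixl1 and Mesp1 are high in 1 of the 2 WT libraries of each tissue (Mixl1 at 80.5 FPKM in epiblast WT 3 and 19.1 in extraembryonic ectoderm WT 1), while Snai1 is lowest in the WT libraries of both tissues.

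The gap between the WT epiblast libraries was among the widest of the transcriptome. Their difference in log2(FPKM + 1) was 5.08 for Mixl1, and only 1 of the 11028 genes kept, the Y-linked Eif2s3y, differed more. For T the difference was 2.65 (11 genes differed more), for Mesp1 2.42 (15), for Gsc 1.65 (52) and for Wnt3 1.32 (130). Snai1 differed by 0.54, a gap that 1742 genes exceeded, and the median over all genes was 0.239. By rank from the top of 23664 genes, Mixl1 was at 941 in WT 3 and at 8726 in WT 4. Foxa2, an endoderm and node factor, shared the pattern with 11.2 FPKM in WT 3 and 0.203 in WT 4.

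The WT libraries of the extraembryonic ectoderm differed in the same genes. WT 1 exceeded WT 2 by 3.01 on the log2 scale for Mixl1 (6 genes differed more), 2.93 for Mesp1 (7), 2.33 for T (20) and 1.45 for Wnt3 (100). Gsc differed by 0.27, and the median over all genes was 0.21. WT 1 is the library with Pou5f1 at 18.3 FPKM, and it carried Y-linked transcripts, as epiblast WT 3 did. The part of epiblast RNA and of sex in these gaps was not tested. The labels do not say whether the 2 tissues came from the same embryos, so the gaps in the 2 tissues may not be separate observations. Of the mKO libraries, those with Y-linked transcripts read T at 0 (epiblast mKO 4) and 0.246 FPKM (extraembryonic ectoderm mKO 2), and Mixl1 at 0.800 and 0.744 FPKM.

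**Figure D2:**
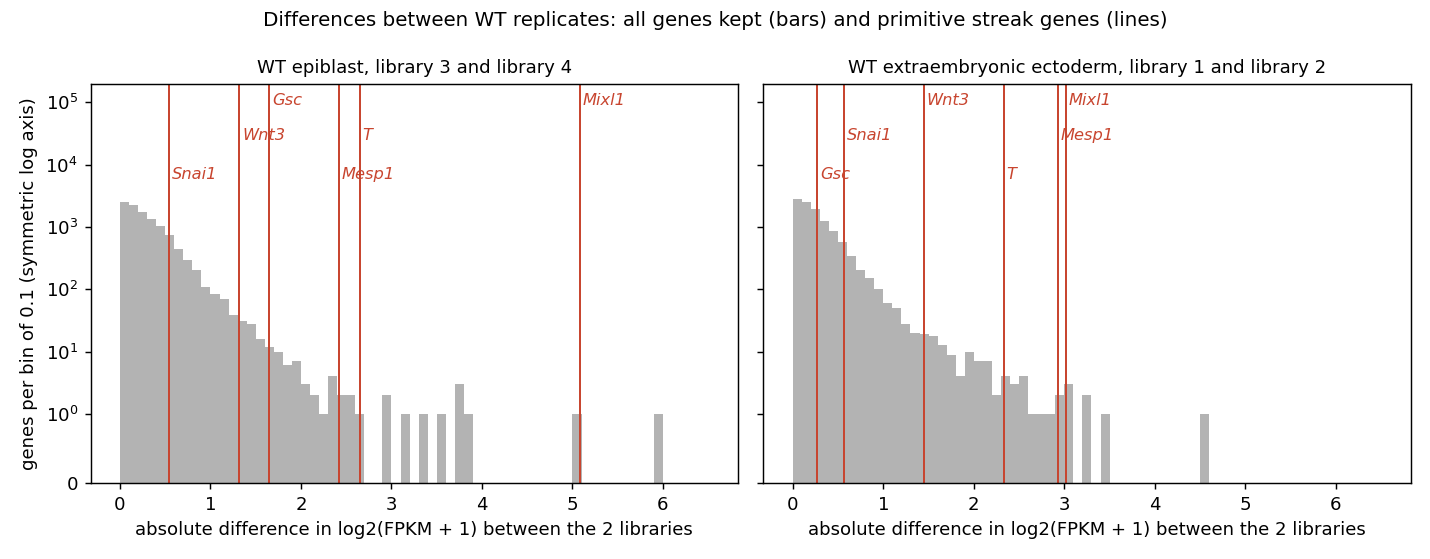
Bars count the genes kept (vertical axis, symmetric log scale) by the absolute difference in log2(FPKM + 1) between the 2 WT libraries of a tissue (horizontal axis), and red lines mark the 6 streak genes tested. Mixl1 lies at 5.08 in epiblast and 3.01 in extraembryonic ectoderm, far out in the tail. Snai1 lies at 0.54 and 0.57, which 15.8% and 10.9% of genes exceed.

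Against this spread, no streak gene passed the test between genotypes in the epiblast. In mKO against WT, 0 of the 6 genes tested were called at a limma adjusted p of 0.05, and 1 of 11028 genes was (0.00907%), Casc4, which was lower; at an unadjusted p of 0.05 the count was 1 of the 6 (Mixl1), beside 4.44% of all genes. The estimates on the log2(FPKM + 1) scale were -3.05 ± 1.28 (SE) for Mixl1, -1.27 ± 0.78 for T, -1.21 ± 0.83 for Mesp1, -0.79 ± 0.42 for Gsc and -0.45 ± 0.50 for Wnt3, each with a limma adjusted p of 1 and 2 libraries against 2. The median of the estimates with Snai1 included was -0.999, beside 0.00476 over all genes tested. T, Mixl1, Mesp1 and Gsc reached 1 FPKM in no mKO library of either tissue and entered the test only through WT and mHet libraries. Their mKO estimates and this median are therefore given as descriptions. The 95% interval for T ran from -2.98 to 0.44 and that for Mixl1 from -5.84 to -0.25, so the data left room for no difference in T as well as for a large one. Groups did not overlap for Mixl1 (lower in mKO) and Snai1 (higher in mKO), where 21.1% and 20.6% of all genes were separated in those directions.

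These estimates rested on WT library 3. Without it, the mKO difference was 0.05 for T, 0.21 for Wnt3 and 0.04 for Gsc, all on the other side of 0, 0 for Mesp1 and -0.51 for Mixl1. Without WT library 4 they were larger, at -2.60 for T, -5.59 for Mixl1 and -1.61 for Gsc. With the summed Y-linked transcripts as a term, the differences were -1.24 for T and -2.99 for Mixl1. WT and mKO epiblast each held a library with Y-linked transcripts and a library with hardly any. The term could therefore move these differences little, and the part of sex was not tested by it.

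Snai1 gave the largest estimate relative to its error of any streak gene between E6.5 genotypes. In mHet against WT epiblast its means were 7.55 ± 3.13 (SD, n = 2) and 1.04 ± 0.54 FPKM, a difference of 2.04 ± 0.52 (SE; 95% interval 0.90 to 3.18) with an unadjusted p of 0.00207 and a limma adjusted p of 0.615. Both mHet libraries lay above both WT ones, as did 19.7% of all genes. In mKO against WT the difference was 1.13 ± 0.52 (limma adjusted p of 1), and without mKO 3 it was 0.29. That library held the most extraembryonic ectoderm marker RNA of the epiblast. Its summed markers were 32.4 FPKM, beside 11.5 in mHet 4 and 0.915 to 2.17 in the other 4. In mKO 4 they summed to 1.42 FPKM, between WT 3 at 0.915 and WT 4 at 1.565. Of these markers 10 of 10 had a higher mean in mKO than in WT epiblast, as did 5567 of 11028 genes. In mHet 9 of 10 had a higher mean than in WT, as did 5983 of 11028 genes. Snai1 was itself higher in extraembryonic ectoderm than in epiblast, and the part of that tissue's RNA in its epiblast values was not tested. Epiblast mHet 3, which had the most Snai1, had summed markers of 2.17 FPKM. In the same mHet comparison the other 5 genes had estimates between -1.90 (Mixl1) and 0.36 (Wnt3), 0 of 6 were called, and 0.0272% of all genes were called. Without WT 3 the mHet difference of T was 0.69, that of Mixl1 0.64 and that of Mesp1 0.52, each turned in direction. Between mKO and mHet epiblast all 6 estimates were below 0, as were 5821 of 11028 over all genes. The median of the 6 was -0.86, beside -0.0191 over all genes. T, Mixl1, Mesp1 and Gsc again entered only through libraries other than mKO, so these values are descriptions. In this comparison 0 of 11028 genes were called by limma (0%). An unadjusted p under 0.05 was found for 271 genes, Gsc among them at -1.02 ± 0.42.

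**Figure D3:**
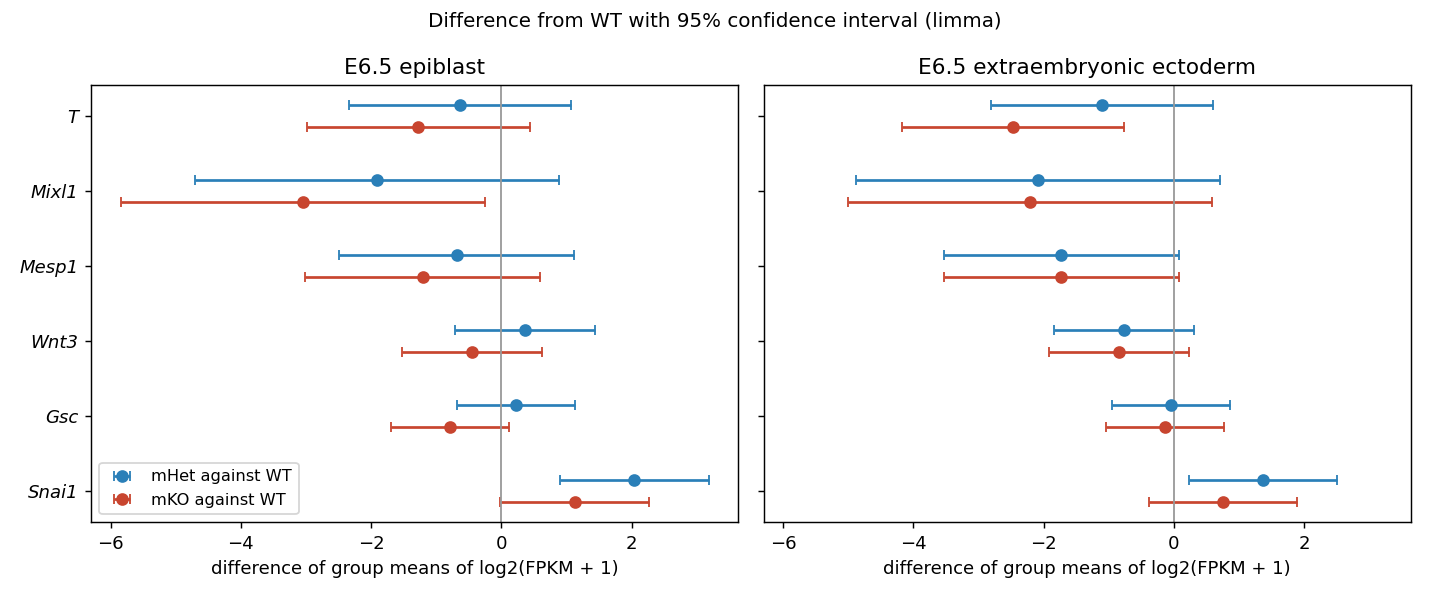
Points give the difference from WT in the group means of log2(FPKM + 1) (horizontal axis) for the 6 streak genes tested (vertical axis) in mHet (blue) and mKO (red), with 95% confidence intervals from limma, in epiblast (left) and extraembryonic ectoderm (right). The intervals are wide, and T in mKO extraembryonic ectoderm (-2.47) and Snai1 in mHet epiblast (2.04) are among the few that do not reach 0.

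In the extraembryonic ectoderm, where the streak does not form, transcripts of the same genes were also read. T was at 13.7 and 1.92 FPKM in WT libraries 1 and 2, 2.38 and 1.76 in mHet 1 and 2, with 0.122 and 0.246 in mKO 1 and 2. Both mKO libraries lay below all 4 others, WT 2 and both mHet libraries included. Mixl1 read 19.1 and 1.49 FPKM in WT, 1.07 and 0.340 in mHet, with 0.334 and 0.744 in mKO. Mesp1 read 8.13 and 0.201 FPKM in WT and was listed at 0 in the 4 mHet and mKO libraries. For Mixl1 and Mesp1 both WT values exceeded both mKO values, with WT 2 near them.

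Wnt3 was at 1.95 and 0.0836 FPKM in WT, 0.110 and 0 in mHet, with 0 in both mKO libraries. Evx1 reached 1.19 FPKM in WT 1 and at most 0.195 elsewhere, and Gsc stayed at or below 0.206. WT 1, the library with Pou5f1 at 18.3 FPKM, was the highest of its tissue for 6 of the 7 genes. Snai1 was again the exception, at 4.36 and 6.96 FPKM in WT, 19.1 and 13.1 in mHet, with 13.4 and 7.47 in mKO, with both WT libraries below the other 4. In that direction 10.6% of all genes were separated between mHet and WT and 14% between mKO and WT.

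The difference of T between mKO and WT extraembryonic ectoderm was -2.47 ± 0.78 (SE; 95% interval -4.18 to -0.76), with an unadjusted p of 0.0083 and a limma adjusted p of 0.489. Without WT 1 it was -1.30. Pou5f1 in this tissue read 18.3 and 2.36 FPKM in WT, 1.70 and 0.149 in mHet, with 0.135 and 0.480 in mKO. Of 10 epiblast markers 8 had a lower mean in mKO than in WT, as did 7336 of 11028 genes. The median difference of these markers was -0.57. The part of epiblast RNA in the T values was not tested. No gene of 11028 was called by limma in this comparison (0%), 854 had an unadjusted p under 0.05, and the median difference over all genes was -0.19. With median ratio scaling the difference of T was -2.36. The other estimates were -2.21 for Mixl1, -1.73 for Mesp1, -0.84 for Wnt3, -0.14 for Gsc and 0.76 for Snai1, with a median over the 6 of -1.28. T, Mixl1, Mesp1 and Gsc entered this test only through WT and mHet libraries, so their estimates and the median are descriptions. The groups did not overlap for T, Mixl1, Mesp1 and Wnt3, which were lower in mKO, and 37.4% of all genes were separated in that direction. In mHet against WT, 0 of 6 genes and 0 of 11028 (0%) were called by limma, with 650 genes at an unadjusted p under 0.05, and Snai1 differed by 1.37 ± 0.52 (limma adjusted p of 0.677).

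Between mKO and mHet extraembryonic ectoderm T differed by -1.37 ± 0.78 (limma adjusted p of 1). None of the 6 genes was called there, and 1 gene of 11028 was (0.00907%), Ccl20, which was lower. The mKO effect did not differ detectably between the tissues for any streak gene: 0 of 6 and 0 of 11028 genes (0%) were called by limma in the test of that difference, with 376 genes at an unadjusted p under 0.05 and none of the 6 among them.

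Between the tissues, averaged over the genotypes, 3 of the 6 genes tested passed, beside 33.5% of all genes. The fit took the libraries of both tissues as independent, which the labels do not state. Wnt3 was higher in epiblast by 1.03 ± 0.29 (SE, 6 libraries against 6, limma adjusted p of 0.0144) and Gsc by 0.98 ± 0.24 (limma adjusted p of 0.00715). Gsc reached 1 FPKM in epiblast libraries only. It entered this test through the tissue where it was high, and its difference is given as a description. In extraembryonic ectoderm Wnt3 reached 1 FPKM in WT 1 only. Snai1 was lower in epiblast (-1.36 ± 0.30, limma adjusted p of 0.00393). T (-0.63, limma adjusted p of 0.315), Mixl1 (0.77, 0.46) and Mesp1 (0.0006, 1) did not pass. With no filter on low values Wnt3 missed the threshold (limma adjusted p of 0.0574), and without epiblast WT 4 the difference of Mixl1 was 1.62 and passed (limma adjusted p of 0.0313). Without epiblast WT 3 the difference of Mixl1 was -0.077. The ratio of Mixl1 to T, both per length, is given only for the 5 libraries where both genes reached 1 FPKM. It was 12.9 in epiblast WT 3 and 3.84 in epiblast mHet 4, and 1.39, 0.776 and 0.449 in extraembryonic ectoderm WT 1, WT 2 and mHet 1.

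The inducing side of the pathway was described with 6 further lists, 86 genes in all. Of the 17 inducing ligands and co-receptors 11 were tested, and none passed between genotypes in the epiblast. Wnt8a, a WNT ligand of the posterior epiblast, read 3.27 and 1.60 FPKM in WT, 0.443 and 1.06 in mHet, with 0 and 0.177 in mKO. Both mKO libraries were below the other 4, and the difference from WT was -1.62 ± 0.32 with a limma adjusted p of 0.485. Wnt8a too reached 1 FPKM in no mKO library, so this difference is a description. Gdf3, a NODAL-related ligand, read 3.40 and 5.71 FPKM in WT, 2.75 and 2.41 in mHet, with 8.65 and 19.7 in mKO, with a difference of mKO from mHet of 1.98 ± 0.35 and a limma adjusted p of 0.4. Named after their values were seen, Fgf8 read 17.7 and 8.08 FPKM in WT, 4.10 and 16.8 in mHet, with 0.639 and 2.28 in mKO, and Nodal read 16.3 and 11.7 in WT, 50.1 and 36.8 in mHet, with 16.7 and 15.3 in mKO. For Fgf8 both mKO values lay below the other 4, and for Nodal both mHet values lay above the other 4. Over all genes, both mKO libraries lay below both WT ones for 21.1% and below both mHet ones for 15.1%. These shares also stand beside the separation of Wnt8a. Both mHet libraries lay above both WT ones for 19.7% of all genes and above both mKO ones for 15.1%. Fgf4, also named after its values were seen, went the other way from Fgf8, with 2.75 and 8.90 FPKM in WT, 12.2 and 7.53 in mHet, with 16.8 and 17.2 in mKO. Its difference of mKO from WT was 1.56 ± 0.40 and that of Fgf8 was -2.49 ± 0.71, with limma adjusted p-values of 0.873 and 0.961.

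Among the 14 inhibitors and feedback targets 12 were tested, and 2 rose in mHet against WT epiblast. Lefty1, a NODAL antagonist, read 3.87 and 0.556 FPKM in WT, 33.6 and 24.8 in mHet, with 1.16 and 3.12 in mKO, a rise of 3.44 ± 0.47 in mHet (limma adjusted p of 0.0294). Id1, a target of BMP signalling, read 9.31 and 2.45 FPKM in WT, 79.0 and 185 in mHet, with 19.0 and 14.2 in mKO, a rise of 4.36 ± 0.57 in mHet (limma adjusted p of 0.0294). Both mHet libraries lay above the other 4 for both genes. Over all genes, both mHet libraries lay above both WT ones for 19.7% and above both mKO ones for 15.1%. These calls depended on the setting: under 12 alternatives Id1 passed in 4 and Lefty1 in 5, and without WT 4 the limma adjusted p was 0.368 and 0.353, without mHet 3 it was 0.1 and 0.596, and without mHet 4 it was 0.22 for both. In mKO against mHet, Lefty1 differed by -3.33 ± 0.47 and did not pass (limma adjusted p of 0.124).

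Of the 10 receptors 8 were tested and none passed between epiblast genotypes. Fgfr1 read 4.22 and 4.23 FPKM in WT, 7.43 and 7.29 in mHet, with 5.23 and 5.86 in mKO, and Fzd7, a WNT receptor, read 13.9 and 11.0 in WT, 4.33 and 11.8 in mHet, with 5.86 and 6.32 in mKO. All 11 signal transducers were tested and none passed. Tcf7l1, a repressor of WNT targets, read 3.71 and 5.63 FPKM in WT, 9.78 and 9.25 in mHet, with 7.56 and 11.9 in mKO, with a difference of mKO from WT of 0.91 ± 0.38 and a limma adjusted p of 1. Its WT libraries were the 2 lowest of the epiblast. Over all genes, both mKO libraries lay above both WT ones for 20.6%, and both mHet libraries did for 19.7%. Lef1, a WNT effector, read 3.53 and 4.54 FPKM in WT, 8.49 and 4.91 in mHet, with 5.53 and 4.82 in mKO.

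Of the 22 mesoderm and endoderm regulators 8 were tested, and none passed between epiblast genotypes. Foxa2 read 11.2 and 0.203 FPKM in WT, 0.104 and 2.02 in mHet, with 0.127 and 0.170 in mKO, so that WT 3 and mHet 4 stood out as they did for T. Hand1, a bHLH factor of trophoblast and lateral mesoderm, read 0.0996 and 0 FPKM in WT, 0.352 and 1.77 in mHet, with 3.69 and 0.356 in mKO. Its 2 highest epiblast libraries, mKO 3 and mHet 4, were those with the most Elf5, and Hand1 read 23.8 to 109 FPKM in the extraembryonic ectoderm; the part of that tissue's RNA in its epiblast values was not tested. Of the 12 genes of epithelial to mesenchymal transition 7 were tested and none passed. Fn1, fibronectin, read 4.53 and 3.71 FPKM in WT, 2.68 and 4.32 in mHet, with 2.84 and 2.96 in mKO, and Cdh1, E-cadherin, the best known target of Snai1, read 31.6 and 41.1 in WT, 41.8 and 40.2 in mHet, with 44.3 and 24.7 in mKO.

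WT 3 was the highest epiblast library for 4 of the 6 streak genes that reached 1 FPKM in an epiblast library, and for 17.3% of 10848 such genes overall. It was also the highest for Eomes, Lhx1 and Foxa2 among the mesoderm and endoderm regulators, and for 3 of 11 inducing ligands and co-receptors (Wnt8a, Fgf5 and Fgf8), a count that mKO 3 and mKO 4 each matched with other ligands of the list. mHet 4 was the highest for 6 of 13 inhibitors and feedback targets, Axin2 and Dkk1 among them, and for 19.4% of genes overall. Across the 6 epiblast libraries, the genes most like T by Pearson's r of log2(FPKM + 1), out of 8164 with a mean of at least 2 FPKM, were Bnip3l (0.983), Foxa2 (0.981), Rbm27 (0.978), Bex1 (0.976) and Pds5b (0.972). Those most like the mean z score of the 6 streak genes were Map3k7 (0.996), Hrsp12 (0.992), Nutf2-ps1, Ankhd1 and Bex1 (0.988 each). With 6 points, 1 of them far from the rest, these values are descriptions; without WT 3 the r of Foxa2 with T was 0.888.

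**Figure D4:**
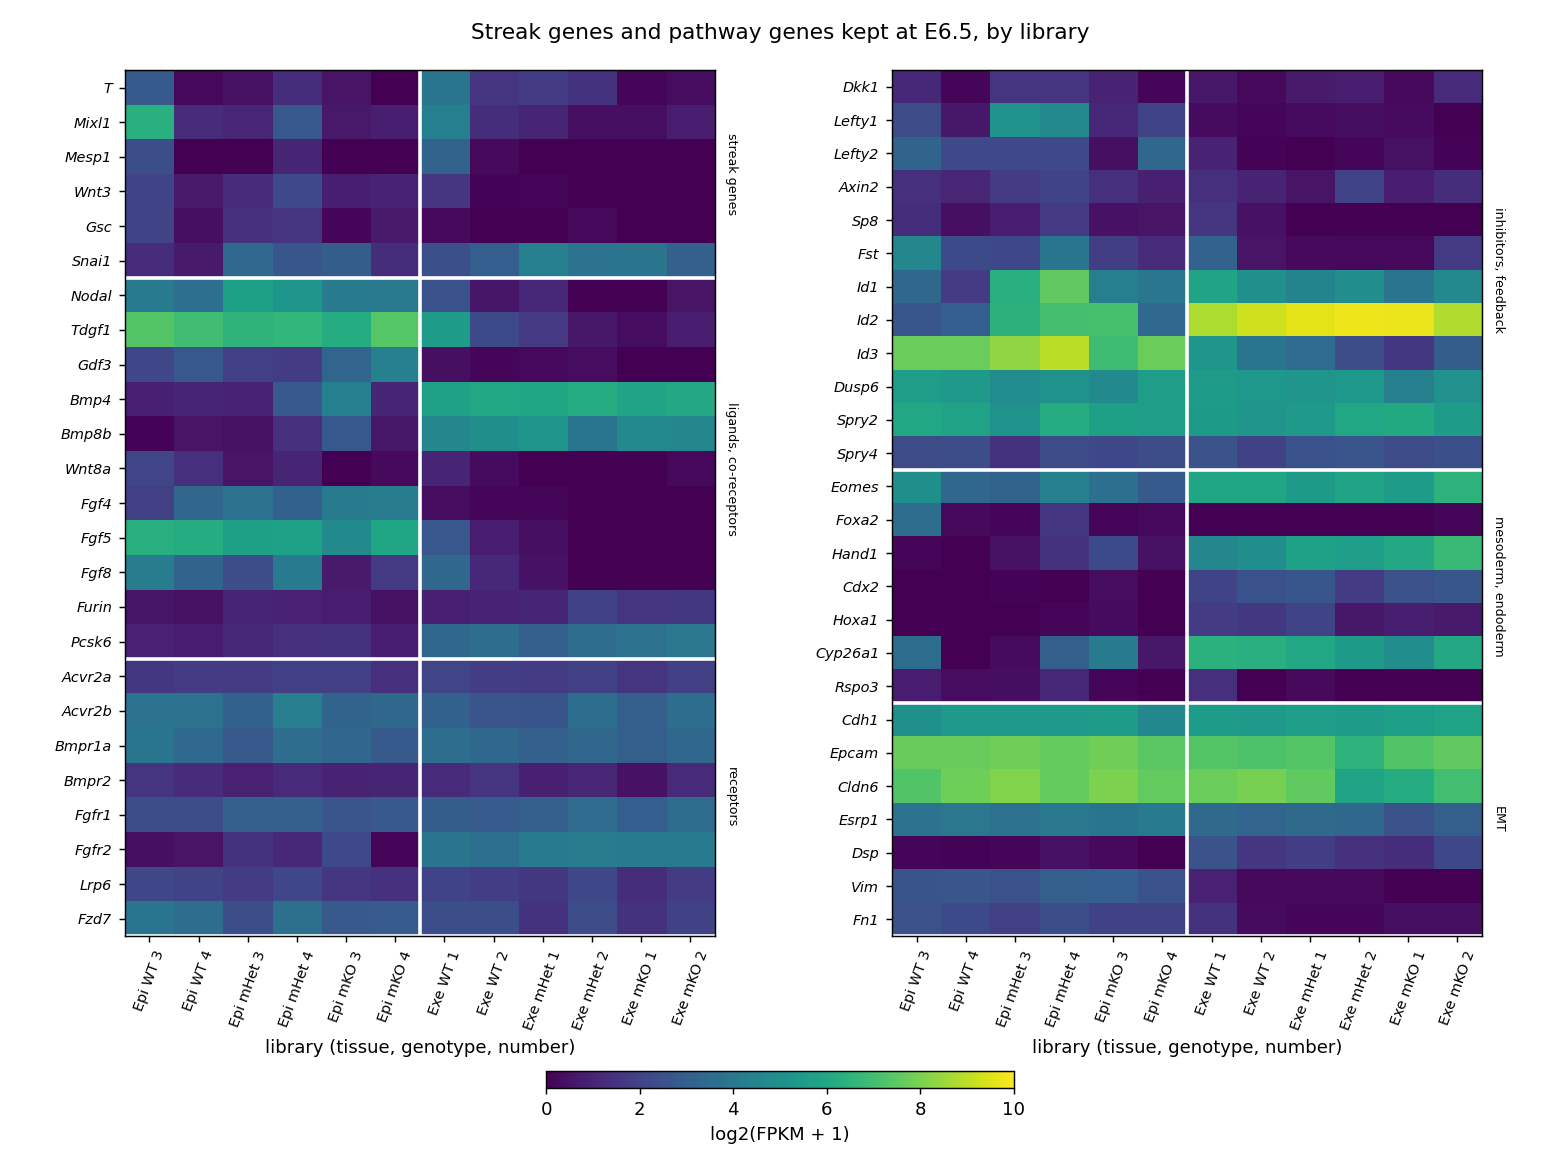
Colour gives log2(FPKM + 1) for the 6 streak genes tested and tested genes of 5 pathway lists (rows). Columns are the 12 E6.5 libraries, epiblast left of the white line and extraembryonic ectoderm right of it. EMT is epithelial to mesenchymal transition. Lefty1 and Id1 stand out in the mHet epiblast libraries (33.6 and 24.8 FPKM for Lefty1), and Bmp4 and Bmp8b in the extraembryonic ectoderm and, within the epiblast, in mKO 3.

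Between the tissues 19.4% of all genes were higher in epiblast and 14.2% lower by limma, and the pathway lists split. Of the 11 ligands and co-receptors tested 7 were higher in epiblast and 4 lower: Nodal was higher by 3.68, Tdgf1, its co-receptor, by 4.96 and Fgf8 by 1.88, while Bmp4 was lower (-4.11) in epiblast, with limma adjusted p-values of 3.23e-06, 5.79e-06, 0.00334 and 2.98e-05. Of the 8 mesoderm and endoderm regulators 5 were lower in epiblast and none higher, Eomes (-2.11) and Hand1 (-4.83) among them, genes that trophoblast is also known to express. Some genes in these counts reached 1 FPKM only in the tissue where they were high, and their differences are descriptions. Vim, a mesenchymal filament gene, was higher in epiblast by 2.45, but it reached 1 FPKM in epiblast libraries only, so this difference is a description.

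Before E6.5 most streak genes were close to 0. T, Mesp1 and Wnt3 were under 1 FPKM in every library of the oocyte, 1-cell, late 2-cell, 8-cell, E3.5 and E4.25 tables that lists them. Snai1 was read at every stage, Mixl1 in late 2-cell and 8-cell embryos, Gsc at E3.5 and E4.25 (and at 1.02 FPKM in 1 WT oocyte library) and Evx1 in oocytes. Gsc and Evx1 are not listed in the 1-cell, late 2-cell and 8-cell tables, and Mesp1 is not listed in the 1-cell, 8-cell and E4.25 tables, so no level can be read for them there. The tables were normalized separately, so levels from different tables are set side by side as deposited, and tests were made within a table only.

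Mixl1 in late 2-cell embryos read 14.5 and 7.71 FPKM in WT, 8.27 and 14.1 in mHet, with 2.24 and 3.32 in mKO. Both mKO libraries lay below the other 4. The difference of mKO from WT was -1.64 ± 0.39 (SE; 95% interval -2.52 to -0.75), with an unadjusted p of 0.00252 and a limma adjusted p of 0.379, and 23.3% of all genes were separated in that direction. It ranged from -2.05 to -1.22 over the alternatives. In this comparison 0 of the 2 streak genes tested and 0.00969% of all genes were called, and 7.56% had an unadjusted p under 0.05. Against mHet, a comparison chosen after the values were seen, the difference was -1.66 ± 0.39 (limma adjusted p of 0.228, with 0.0872% of all genes called). By the 8-cell stage Mixl1 read 1.75 and 3.43 FPKM in WT, 1.63 in mHet, with 2.10, 1.80 and 2.52 in mKO, and the groups overlapped (-0.16 ± 0.34).

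Snai1 had its highest deposited values in the late 2-cell table, where it read 44.1 and 42.5 FPKM in WT, 37.3 and 35.9 in mHet, with 60.5 and 40.7 in mKO. The mKO libraries lay on both sides of the WT ones (0.19 ± 0.25). In 8-cell embryos it read 9.05 and 2.77 FPKM in WT and 7.30, 9.89 and 2.90 in mKO, again overlapping. In oocytes it ranged from 1.38 to 5.94 FPKM, in 1-cell embryos from 1.40 to 7.03, and in the second E3.5 table from 0.520 to 2.50. At E4.25 the 4 WT libraries ran from 0.0268 to 9.67 FPKM and the 4 mKO libraries from 0.738 to 2.03. No Snai1 comparison of mKO or KO with WT passed in these tables, where limma called 0.0102% of all genes in oocytes, 0.0116% in 1-cell embryos and 0.012% in 8-cell embryos.

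Gsc at E4.25 was listed at 0 in 3 WT libraries and at 0.499 FPKM in the fourth, and read 0.631, 1.02, 1.34 and 3.78 in the 4 mKO libraries. The 3 libraries at or above 1 FPKM were all mKO, so Gsc entered the test only through the group where it was high, and its difference is given as a description. All mKO values lay above all WT values, where 21.6% of genes tested were separated in that direction, and the difference was 1.16 ± 0.38 (SE) with a limma adjusted p of 0.0506. Neither of the 2 streak genes tested passed, beside 14.6% of all genes, and over the alternatives the limma adjusted p of Gsc ran from 0.0425 to 0.319. Over all genes at E4.25, 1370 were higher and 24 lower in mKO. The transcript Rn45s took 21 to 68.6% of the summed FPKM in WT against 11.7 to 52.4% in mKO. Removing it was among the alternatives, over which the difference of Gsc ran from 0.8204 to 3.225. Pou5f1 read 0.279, 1.39, 0.062 and 1.12 FPKM in WT against 7.04, 25.1, 4.78 and 21.2 in mKO. Genes at 1 FPKM numbered 5923 to 7207 in WT and 7194 to 8988 in mKO. The summed epiblast markers overlapped (4.53 to 110 and 54.6 to 103 FPKM). The part of such library content in the Gsc values was not tested. At E3.5 Gsc read 3.45 and 2.14 FPKM in WT, 1.18 and 1.88 in mHet, with 5.93 and 3.11 in mKO of the first table (0.52 ± 0.37). Y-linked transcripts there summed to 45.0 and 59.7 FPKM in WT, 43.5 and 84.7 in mHet, with 0.15 and 0.10 in mKO. Sex and the mKO genotype therefore cannot be told apart in that table. In the second E3.5 table Gsc ran from 0.444 to 1.29 in WT and from 0.301 to 2.74 in mKO (0.23 ± 0.28). Neither passed, where limma called 0.0407% and 0.0539% of all genes.

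Evx1 averaged above 1 FPKM in oocytes, with means of 1.83 ± 0.79 (SD, n = 2) in WT, 1.93 ± 1.22 (n = 2) in Het and 1.20 ± 0.50 (n = 3) in KO, and these groups overlapped (-0.36 ± 0.61, limma adjusted p of 1).

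**Figure D5:**
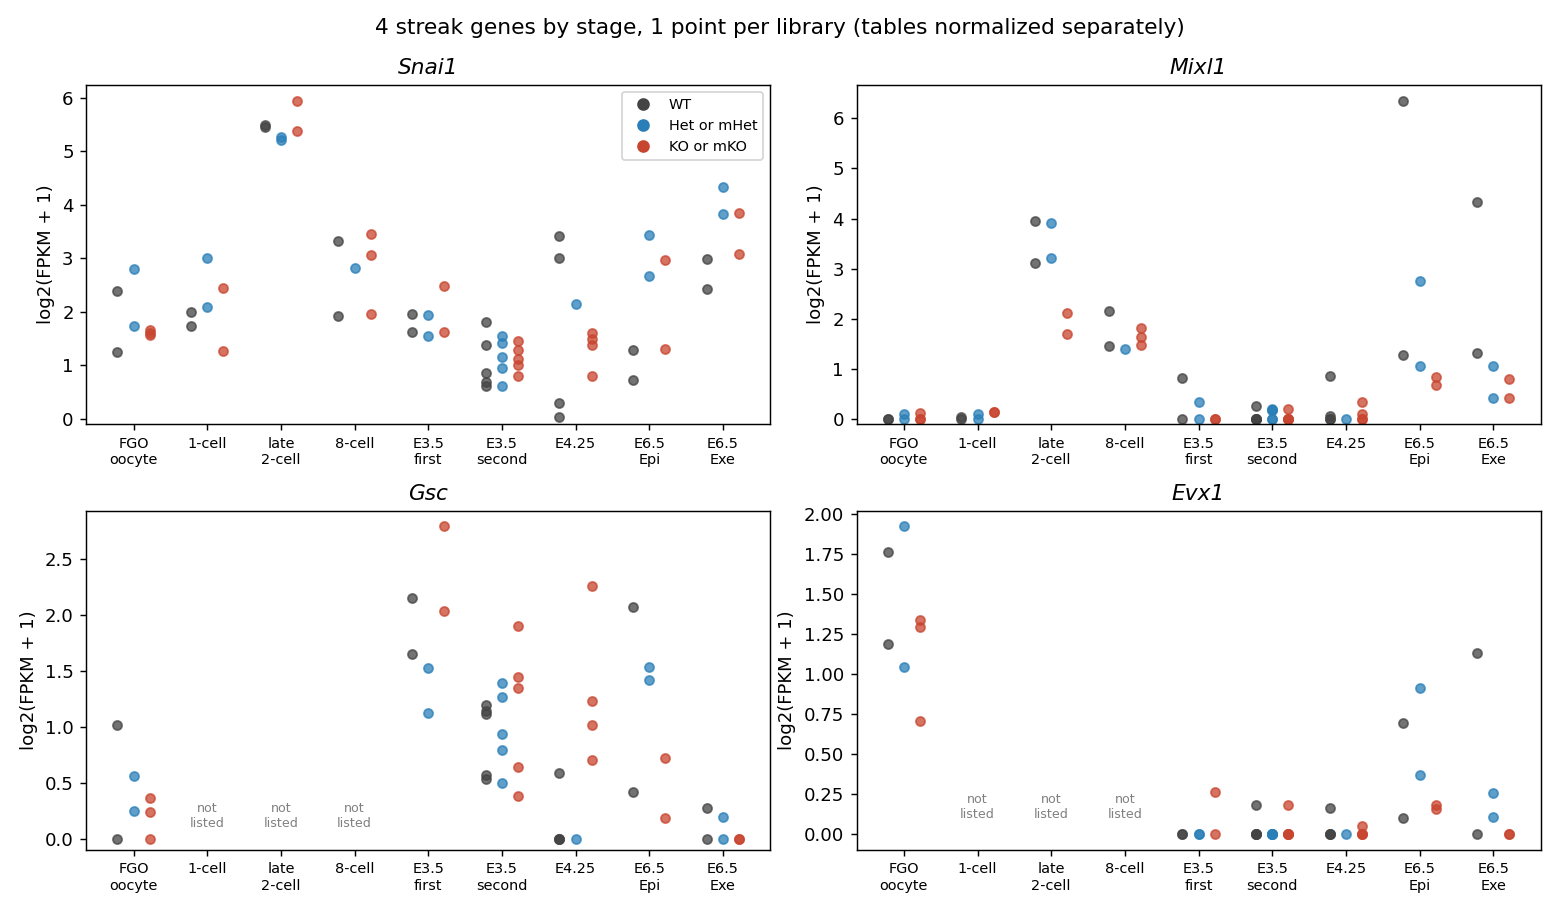
Each point is 1 library, plotted as log2(FPKM + 1) (vertical axis) by stage (horizontal axis) and coloured by genotype, for Snai1, Mixl1, Gsc and Evx1; "not listed" marks tables without the gene. Mixl1 in late 2-cell embryos is at 2.24 and 3.32 FPKM in mKO, below the 4 other libraries, and Snai1 is highest at that stage in all genotypes.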

How the data were processed

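Smart-seq2 libraries of oocytes and embryos were sequenced on a DNBSEQ-T7, per the labels. The deposited tables hold FPKM per gene and library, per the file headers. Reads were handled with HISAT2 2.2.1, HTSeq 0.6.0 and Trim Galore 0.4.2, per the submitters' processing notes, which also name the builds mm9 and hg19 with no role. Not given in the sources used here are the tool and annotation behind FPKM and the use of strand. Depth cannot be read from FPKM, so no counting interval is given.

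Of 68 libraries 67 were used. The epiblast columns carry the numbers 3 and 4, which are not those of the titles, and were matched to their group only. A gene was tested in a table where 2 or more of its libraries reached 1 FPKM. Each table was fitted alone with limma 3.58.1 in R 4.3.3, as group means with a trended variance. The values fitted were log2(FPKM + 1), a scale that understates changes of low genes. The 12 E6.5 libraries were fitted together. The p-values are two-sided, adjusted by Benjamini and Hochberg over all genes kept, with a threshold of 0.05. Exact permutation of 2 libraries against 2 cannot give a p below 0.333 and was not used. The fit was tested on simulated data.

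The 7 genes, the lists and the comparisons were chosen with earlier results of these data known. Named besides the 7 were, from each list, up to 4 genes past the threshold in an epiblast genotype comparison or, with none, the 2 of smallest p, and the 5 genes most like T and like the mean of the 6 streak genes tested. Outside that rule, Nodal, Fgf4, Fgf5, Fgf8, Bmp4, Bmp8b, Tdgf1, Dkk1, Axin2, Eomes, Lhx1 and Vim, and the genes called in no list (Casc4 and Ccl20), were named after their values were seen. The promoter search was chosen after the values and sequences were seen. Alternatives were a pseudocount of 0.1, no filter, median ratio scaling, Rn45s removed, a Y-linked term, the 2 groups alone, a replicate block and each library left out. Leaving out extraembryonic ectoderm WT 1 and epiblast mKO 3 together, and the alternatives for single genes outside the epiblast and tissue comparisons and for Id1 and Lefty1, and a block on the epiblast column numbers, were chosen after seeing the data. In the mesoderm and endoderm list 1 gene is not reported here.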

Additional observations from a re-analysis of the deposited data

How the results depend on the processing

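Over 29 log2 differences and 387 alternatives, 350 kept their direction and side of the threshold, 16 lost a call (15 of them Id1 and Lefty1), 5 gained one and 16 turned in direction, in 10 of the results. Besides those given above, in mHet against WT epiblast Mesp1 turned with the Y-linked term (0.031), Wnt3 without WT 4 (-0.30) and without mHet 4 (-0.12), and Gsc without WT 4 (-0.60). Between the tissues Mesp1 turned with Rn45s removed (-0.0026), with the Y-linked term (-0.099), without epiblast WT 3 (-0.40), without extraembryonic ectoderm WT 2 (-0.49) and without epiblast mHet 4 (-0.17). The other reversals were those without epiblast WT 3 given above. With each library left out in turn, the difference of mKO from WT epiblast ran from -2.60 to 0.053 for T, -1.11 to 0.21 for Wnt3 and -1.61 to 0.036 for Gsc. That of mHet from WT ran from -1.96 to 0.69 for T, -4.44 to 0.64 for Mixl1, -1.89 to 0.52 for Mesp1, -0.30 to 1.02 for Wnt3 and -0.60 to 1.05 for Gsc, and that between the tissues from -0.077 to 1.62 for Mixl1 and -0.49 to 0.49 for Mesp1. Where a library left out left 1 in its group, that library was assumed to vary like the others. The cause of these changes was not tested.

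No streak gene was called between E6.5 genotypes under any alternative run. Counts over all genes moved. In mKO against WT epiblast 1 gene became 17 without the filter and 0 with the pseudocount of 0.1, median ratio scaling, the Y-linked term, the 2 groups alone, a block on the column numbers, both libraries with markers of the other tissue left out, or any library left out (0 to 0). In mHet against WT epiblast 3 became 0 (pseudocount), 15 (no filter), 0 (scaling), 5 (2 groups alone), 5 (block on the column numbers), 6 (both libraries left out) and 0 to 2 with 1 library left out. In mKO against mHet epiblast 0 became 16 (no filter), 1 (Y-linked term) and 0 to 1 (library left out). In extraembryonic ectoderm, mKO against WT went from 0 to 8 (pseudocount), 1 (no filter), 2 (scaling), 2 (2 groups alone) and 0 to 8 (library left out). There, mHet against WT went to 3 (no filter) and 0 to 2614 (library left out, the highest without mHet 1), and mKO against mHet from 1 to 5 (no filter), 0 (2 groups alone) and 1 to 415 (the highest without mHet 1). The test of the mKO effect between tissues went from 0 to 1 (pseudocount), 7 (no filter) and 0 to 5 (library left out). At E4.25 the count of streak genes was 1 with the Y-linked term, the 2 groups alone or the replicate block, and 0 to 1 with 1 library left out (1 without WT 4).

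Replicate numbers are in the labels of all tables but give no shared source. Same-numbered libraries deviated together in 1-cell (correlations of 0.515 to 0.557), late 2-cell (0.213 to 0.257) and the first E3.5 embryos (0.155 to 0.571), each with 2 numbers, and not throughout elsewhere (-0.162 to -0.00499 in extraembryonic ectoderm). With the replicate block Mixl1 in late 2-cell embryos had a limma adjusted p of 0.147, T in mKO against WT extraembryonic ectoderm 0.462, and Gsc at E4.25 0.0425; between the tissues, with the block within extraembryonic ectoderm only, 3630 genes were called in place of 3699. The epiblast columns carry the numbers 3 and 4, which are not those of the labels. Same-numbered epiblast columns did not deviate together (-0.359 to 0.0698), and a replicate block on those numbers called 0 genes in mKO against WT, 5 in mHet against WT and 0 in mKO against mHet, none a streak gene.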
